A study of Mus musculus with 84 samples.

Results

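The comparison described here asks how the diet eaten by germ-free recipients of gut bacteria related to H3K27ac, acetylation of histone H3 at lysine 27, in the colon epithelium. It rests on 11 of the 84 samples of the series: 5 H3K27ac peak lists from recipients fed a high fat diet (HFD) and 6 from recipients fed a low fat diet (LFD). The recipients were male, germ-free C57BL/6 mice that ate either diet and were given fresh stool from male donors of either diet by repeated gavage over 5 weeks. Bacteria from HFD-fed donors are called HFB and those from LFD-fed donors LFB, so that the 4 groups are HFDHFB (2 libraries), HFDLFB (3), LFDHFB (3) and LFDLFB (3). No germ-free group took part, so both diets were compared in colonised mice. Donor bacteria were held as a block, or as a term of the fit, in the main tests of diet in these mice. Counts of regions or loci by diet took no account of the donor. Chromatin came from epithelium shed from the colon wall in EDTA, with 1 polyclonal antibody against H3K27ac. Nothing in the labels says whether replicates of a group came from separate cages, so p-values measure the spread between these samples.

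H3K27ac marks active promoters and active enhancers. It is written chiefly by the p300 and CBP acetyltransferases and removed by histone deacetylases. Enhancers in the gut epithelium usually also carry H3K4me1, which can be present without acetylation, and many of those in colonocytes are bound by the nuclear receptor HNF4α.

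The deposited lists give the position of each peak without its reads, so the depth of the ChIP libraries is unknown and the quantities compared are the number of peaks and the number of bases (bp) they cover. Peaks of the 11 lists that shared at least 1 bp were merged, which gave 69364 regions over 225.3 Mb of the mouse genome (mm9). Of these, 21018 (30.3%) held a peak in all 11 lists and 21503 (31.0%) in a single list. A region is called HFD-exclusive if all 5 HFD lists and no LFD list have a peak in it, and LFD-exclusive if all 6 LFD lists and no HFD list do. There were 45 HFD-exclusive regions, 0.0649% of all merged regions, and 11 LFD-exclusive regions, 0.0159%. When every list was cut to the same number of its widest peaks, 39684 as in the shortest list, the counts were 13 (0.0211%) and 15 (0.0243%) of 61609 regions, with no excess on HFD.

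The labelled tissue was checked against promoter marks of cell type genes. All 10 epithelial promoters examined, among them Epcam, Cdh1, Vil1 and Cdx2, carried a peak in all 11 lists. Leukocyte genes had a marked promoter at 0 of 10 in every HFD list and at 0 to 2 of 10 in the LFD lists, fibroblast genes at 0 to 1 of 10 on either diet, and smooth muscle genes at 1 to 2 on HFD and 1 to 3 on LFD. Endothelial genes had 2 to 3 marked promoters on HFD and 1 to 3 on LFD, adipocyte and mesothelial genes 1 to 2 and 1 to 3, and enteric neuron and glia genes 0 to 2 and 0. The leukocyte genes Cd3e and Lyz2, the fibroblast genes Dcn and Col3a1, and the endothelial genes Cdh5 and Kdr had no promoter peak in any list. Other members did, among them the endothelial genes Esam in 10 of 11 lists, Pecam1 in 8 and Egfl7 in 5, the smooth muscle genes Smtn in 11 and Acta2 in 5, the adipocyte genes Cidec in 11 and Plin1 in 6, and Ptprc, Itgam, Pdgfrb and Col1a1 in 1 or 2.

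Sequences of 7 diet-exclusive regions are given from the mm9 genome, plus strand. The first 5 come from the named regions whose central 600 bp held an HNF4α core, CAAAGTCCA, or an AP-1 core, TGANTCA. These letters were searched for as sites of the HNF4α receptor and of the FOS and JUN factors. N stands for any base, so an AP-1 match, such as TGAATCA near Slc39a10, need not be the form these factors prefer. Capitals mark the core, and each line is 150 bp long. None of the 7 stretches touches an annotated exon.
HFD-exclusive, nearest gene Slc39a10, chr1:47222700-47222849: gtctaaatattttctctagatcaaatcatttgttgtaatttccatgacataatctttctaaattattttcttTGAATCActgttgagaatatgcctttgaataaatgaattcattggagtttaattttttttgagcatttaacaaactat
HFD-exclusive, nearest gene Cbfb, chr8:107712296-107712445: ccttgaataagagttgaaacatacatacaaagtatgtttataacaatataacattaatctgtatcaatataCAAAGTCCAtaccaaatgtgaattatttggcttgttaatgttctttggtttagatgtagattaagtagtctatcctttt
HFD-exclusive, nearest gene C78339, chr13:46770151-46770300: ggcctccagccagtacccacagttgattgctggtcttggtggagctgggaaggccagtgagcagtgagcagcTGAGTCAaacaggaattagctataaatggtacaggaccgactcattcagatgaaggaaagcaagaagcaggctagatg
LFD-exclusive, nearest gene Man2a2, chr7:87520346-87520495: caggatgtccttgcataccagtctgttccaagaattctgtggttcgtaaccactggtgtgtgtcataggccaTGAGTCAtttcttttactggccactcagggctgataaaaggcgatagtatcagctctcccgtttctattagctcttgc
LFD-exclusive, nearest gene 2310033E01Rik, chr7:25324727-25324876: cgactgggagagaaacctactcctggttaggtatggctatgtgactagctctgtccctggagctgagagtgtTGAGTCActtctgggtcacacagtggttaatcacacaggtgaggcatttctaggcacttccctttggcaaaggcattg

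The core near C78339 lay inside a peak of 5 of 5 HFD lists, that near Slc39a10 inside 3 and that near Cbfb inside 1, since the peaks of different libraries covered different stretches of a merged region. Both LFD cores lay inside a peak of 5 of 6 LFD lists. Another pair of stretches was covered by every list of its diet. One is the 150 bp just before the first exon of Fmn1, the only promoter among the named regions, with 64% G and C, and the other is 200 bp beyond the last exon of Slc6a18, where none of the cores searched was found.
HFD-exclusive, Fmn1 promoter, chr2:113167743-113167892: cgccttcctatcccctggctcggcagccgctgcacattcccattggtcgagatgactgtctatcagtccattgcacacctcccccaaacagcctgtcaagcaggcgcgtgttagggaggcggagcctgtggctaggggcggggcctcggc
LFD-exclusive, Slc6a18, chr13:73798001-73798200: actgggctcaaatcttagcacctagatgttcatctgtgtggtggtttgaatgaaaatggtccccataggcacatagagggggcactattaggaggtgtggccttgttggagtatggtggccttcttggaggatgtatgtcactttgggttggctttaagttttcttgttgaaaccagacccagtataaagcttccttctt

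The HFD lists held more peaks and covered more of the genome than the LFD lists, and the peaks they had more of lay away from promoters. The HFDHFB lists held 42486 and 51873 peaks and the HFDLFB lists 48889, 46138 and 49147. The LFDHFB lists held 43485, 41769 and 42318 and the LFDLFB lists 44556, 45797 and 39684. Of the 5 HFD lists, 4 were thus longer than every LFD list, while HFDHFB replicate 1 fell among the LFD lists. The mean was 47707 ± 3555 (SD, n = 5) on HFD and 42935 ± 2165 (SD, n = 6) on LFD, a difference within donors of 4684 peaks (p = 0.015, exact permutation test, two-sided, 200 arrangements of diet within donor, of which the smallest possible p is 0.005). Covered length was 119.9 ± 9.60 Mb (SD, n = 5) on HFD and 104.4 ± 8.62 Mb (SD, n = 6) on LFD, a difference of 15.4 Mb (p = 0.01, same exact test). The median peak width was 1800 or 2000 bp in every list and did not separate the diets (p = 0.7, exact permutation test, difference 16.7 bp).

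**Figure D1:**
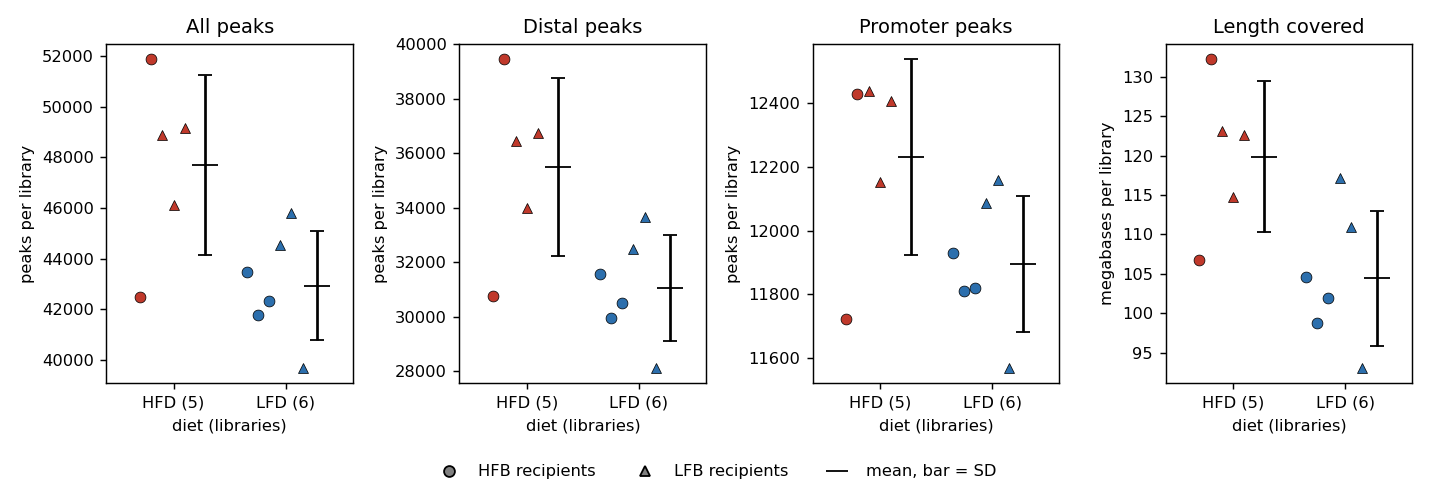
All peaks, distal peaks, promoter peaks and length covered (megabases) in each of the 11 H3K27ac lists, by diet (colour) and donor bacteria (shape), with the mean and SD of each diet; the vertical axes do not start at 0. The HFD lists run from 42486 to 51873 peaks and from 106.7 to 132.2 Mb, and the LFD lists from 39684 to 45797 peaks and from 93.1 to 117.2 Mb.

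The direction was shared by recipients of both kinds of bacteria. In HFB recipients the HFD lists held 4656 more peaks (p = 0.2, exact permutation test) and covered 17.7 Mb more (p = 0.1), and in LFB recipients they held 4712 more (p = 0.1) and covered 13.1 Mb more (p = 0.2). Neither donor group alone can give an exact p below 0.1. The difference between the donor groups in the effect of diet on peak number was -56.8 peaks, HFB minus LFB (p = 0.99, exact permutation test). Without HFDHFB replicate 2, the longest list, the difference in peak number was 2337 (p = 0.1125, exact permutation test) and that in covered length 9.04 Mb (p = 0.05). Without LFDHFB replicate 2 or 3 the differences in peak number were 4495 and 4632, each with p = 0.05 (exact permutation test), which also ends the call. Peak number also depends on sequencing depth, which could not be compared, and its part in the difference was not tested.

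Peaks within 1 kb of a protein-coding transcription start site (TSS) numbered 12230 ± 308 (SD, n = 5) on HFD and 11896 ± 213 (SD, n = 6) on LFD. That difference, 308 peaks, did not pass (adjusted p = 0.126 over 7 measures added after the data had been seen, exact permutation test). Distal peaks numbered 35477 ± 3268 on HFD and 31039 ± 1953 on LFD, a difference of 4376 (adjusted p = 0.035, exact permutation test), so that promoter peaks made up 25.7% of the HFD lists and 27.7% of the LFD lists (adjusted p = 0.035, exact permutation test). Without HFDHFB replicate 2 the distal difference was 2206 peaks (unadjusted p = 0.0875, exact permutation test) and that in the promoter share -1.11 points (unadjusted p = 0.0625), in place of -2.02. Without LFDHFB replicate 2 or 3 both had an unadjusted p of 0.05 (exact permutation test). When the 39684 widest peaks of each list were compared, the HFD lists held 98.75 fewer promoter peaks and 98.75 more distal peaks (unadjusted p = 0.165, exact permutation test), so the direction at promoters turned. Regions marked in all 11 lists were covered over 94.6 ± 4.41 Mb on HFD and 87.0 ± 5.09 Mb on LFD, and regions marked in 2 to 10 lists over 22.6 ± 4.34 Mb and 15.4 ± 3.44 Mb (both adjusted p = 0.035, exact permutation test). Regions of a single list covered 2.67 ± 0.861 Mb and 2.03 ± 0.461 Mb (adjusted p = 0.175). The added length on HFD was 7.57 Mb in regions shared by every list and 7.18 Mb in regions marked in 2 to 10. Without HFDHFB replicate 2 these were 4.65 and 4.31 Mb, and with equal numbers of widest peaks 6.37 and 4.53 Mb. In regions shared by every list, leaving out HFDHFB replicate 2, HFDLFB replicate 1 or 3, or LFDHFB replicate 2 or 3 took the unadjusted p to between 0.05 and 0.06 (exact permutation test), which ends that call.

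Lists of the same diet shared more of their covered bases than lists of different diets. The Jaccard index, shared bases over bases covered by either list, averaged 0.590 in the 10 pairs of equal diet and donor and 0.579 in the 15 pairs of equal donor and different diet, a difference of 0.0115 (p = 0.01, exact permutation test, two-sided). Leaving out any 1 of the 3 HFDLFB lists, or HFDHFB replicate 2, ended this call, with p between 0.05 and 0.19. The largest value the index can reach falls as lists differ more in covered length, and the HFD lists covered more. List length and peak position therefore cannot be told apart in this difference. Across all 69364 regions, 197 (0.284%) were marked in 5 HFD lists and 1 LFD list. Marked in 1 HFD list and 6 LFD lists were 11 (0.0159%). As in the exclusive counts, the first asks 5 lists of a diet to agree and the second 6, and the HFD lists were longer. Number of lists, list length and diet therefore cannot be told apart in these counts.

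**Figure D2:**
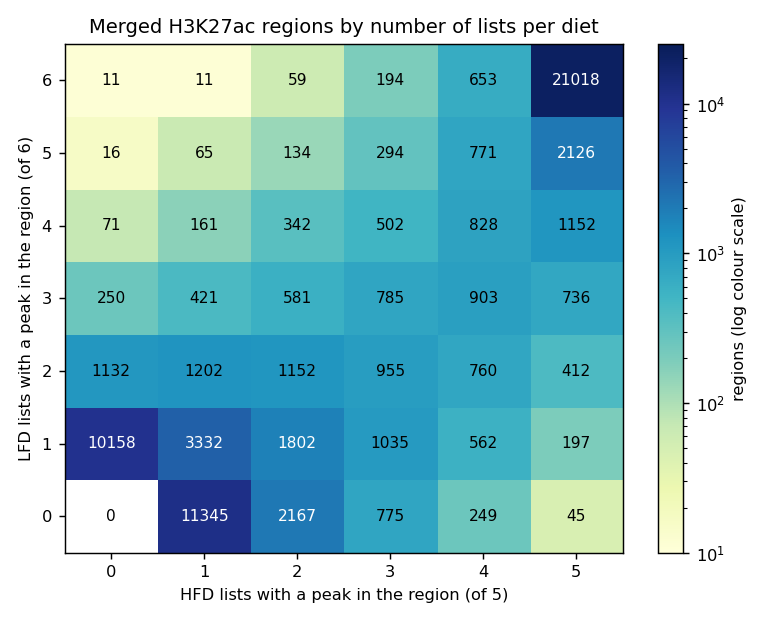
Number of merged regions by the number of HFD lists (0 to 5) and LFD lists (0 to 6) with a peak. Most regions lie at 1 list or at all 11, and the corners for 5 HFD and no LFD lists and for 6 LFD and no HFD lists hold 45 and 11.

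No region passed a test of presence alone. Its smallest p can pass adjustment over so many regions only if far more of them share it, so the test cannot decide on single regions. The 45 HFD-exclusive and 11 LFD-exclusive regions are the ones whose presence separated the diets completely, and each had the smallest p the design allows, 0.005, which gave an adjusted p of 1 over the 47861 regions marked in at least 2 lists (exact permutation test). At an unadjusted p under 0.05 presence was higher on HFD at 491 regions (1.03%) and lower at 38 (0.0794%). With 1 list of the diet allowed to miss, and still no list of the other diet, 294 regions (0.424%) were marked in at least 4 of 5 HFD lists and 27 (0.0389%) in at least 5 of 6 LFD lists. These counts include the exclusive regions, so 249 and 16 lay just outside the definition. Exclusive regions were of ordinary width. They measured 800 to 5000 bp on HFD (median 2000) and 1800 to 3600 bp on LFD (median 2400). The median was 2200 bp for all merged regions and 2400 bp for other regions in 5 or 6 lists. Of the exclusive regions, 23 of the 45 and 4 of the 11 were covered over at most 600 bp in their shortest library. In 9 of the 45 and 3 of the 11 no single base was covered in all lists of the diet. Such counts are not given here for other regions. The exclusive regions are described by place and neighbouring gene, without a test, because presence chose them.

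The 8 HFD-exclusive regions with the longest coverage in their shortest library included 1 promoter. The first, chr1:47220201-47225000, is intergenic, 311.7 kb from the TSS of Slc39a10, a zinc importer, and was covered over 3200 and 1800 bp in the HFDHFB lists and 1400, 2000 and 1600 bp in the HFDLFB lists. The region at chr14:57860401-57864000, 109.8 kb from Gjb6, a gap junction connexin, was covered over 2600 and 1400 bp in HFDHFB and 2600, 2000 and 2400 bp in HFDLFB. At the Fmn1 promoter, chr2:113167001-113168800, the lists covered 1200 and 1400 bp in HFDHFB and 1200, 1200 and 1400 bp in HFDLFB. Fmn1 encodes formin 1, which nucleates actin filaments at cell junctions. The narrow spread at Fmn1 set it apart from Arhgap24, a GTPase-activating protein for Rac, where the intronic region chr5:103210201-103213600 was covered over 1000 to 3400 bp.

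The remaining 4 lay near genes of other roles. A region over an exon of Hectd2, a ubiquitin ligase of the HECT family, at chr19:36664401-36666600 was covered over 1200 to 1400 bp in the HFD lists. One within an intron of Cbfb, the partner subunit of the RUNX factors, at chr8:107711001-107714200 was covered over 1000 to 2000 bp. Another, intergenic and 207.6 kb from Ppap2b, a lipid phosphate phosphatase, at chr4:105036001-105039200, was covered over 1000 to 2000 bp. The last, over an exon of C78339 at chr13:46769001-46771600, was covered over 1000 to 2200 bp. All 6 LFD lists had 0 bp in each of these regions, by definition.

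None of the 11 LFD-exclusive regions overlapped a window of 1 kb around a TSS, which leaves a 95% Clopper-Pearson interval of 0 to 28.5%. Of the 45 HFD-exclusive regions 9 did (20%, interval 9.58 to 34.6%). Both intervals contain the 19.7% of all merged regions, and other regions in 5 or 6 lists stood at 9.34%, inside the LFD interval and below the HFD one. The nearest TSS was that of Man2a2, an α-mannosidase of N-glycan maturation, 4.13 kb from the region chr7:87518401-87522000. That region was covered over 2600, 2200 and 2000 bp in the LFDHFB lists and 3000, 2200 and 1000 bp in the LFDLFB lists. The region chr7:25323201-25326600 overlapped an exon of Irgq, with the TSS of 2310033E01Rik nearest at 6.19 kb, and was covered over 600 to 2400 bp (median 1900). Of the intronic regions, chr4:97461401-97465000 lay in Nfia, which encodes a nuclear factor I protein, with the TSS of E130114P18Rik nearest at 18.5 kb, and was covered over 1000 to 3600 bp. The region chr15:91292801-91295200 in Slc2a13, a proton and myo-inositol cotransporter, was covered over 800 to 2200 bp. The third, chr11:67989201-67991400, lay in Stx8, a syntaxin of endosome fusion, with the TSS of Ntn1, which encodes the guidance cue netrin 1, nearest at 210.0 kb, and was covered over 800 to 2000 bp. The intergenic ones lay 170.4 kb from Fam84b, 14.7 kb from Zkscan3, a zinc finger repressor of autophagy genes, and 237.3 kb from Dio3, the deiodinase that inactivates thyroid hormone, with medians of 1600, 1200 and 1100 bp.

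**Figure D3:**
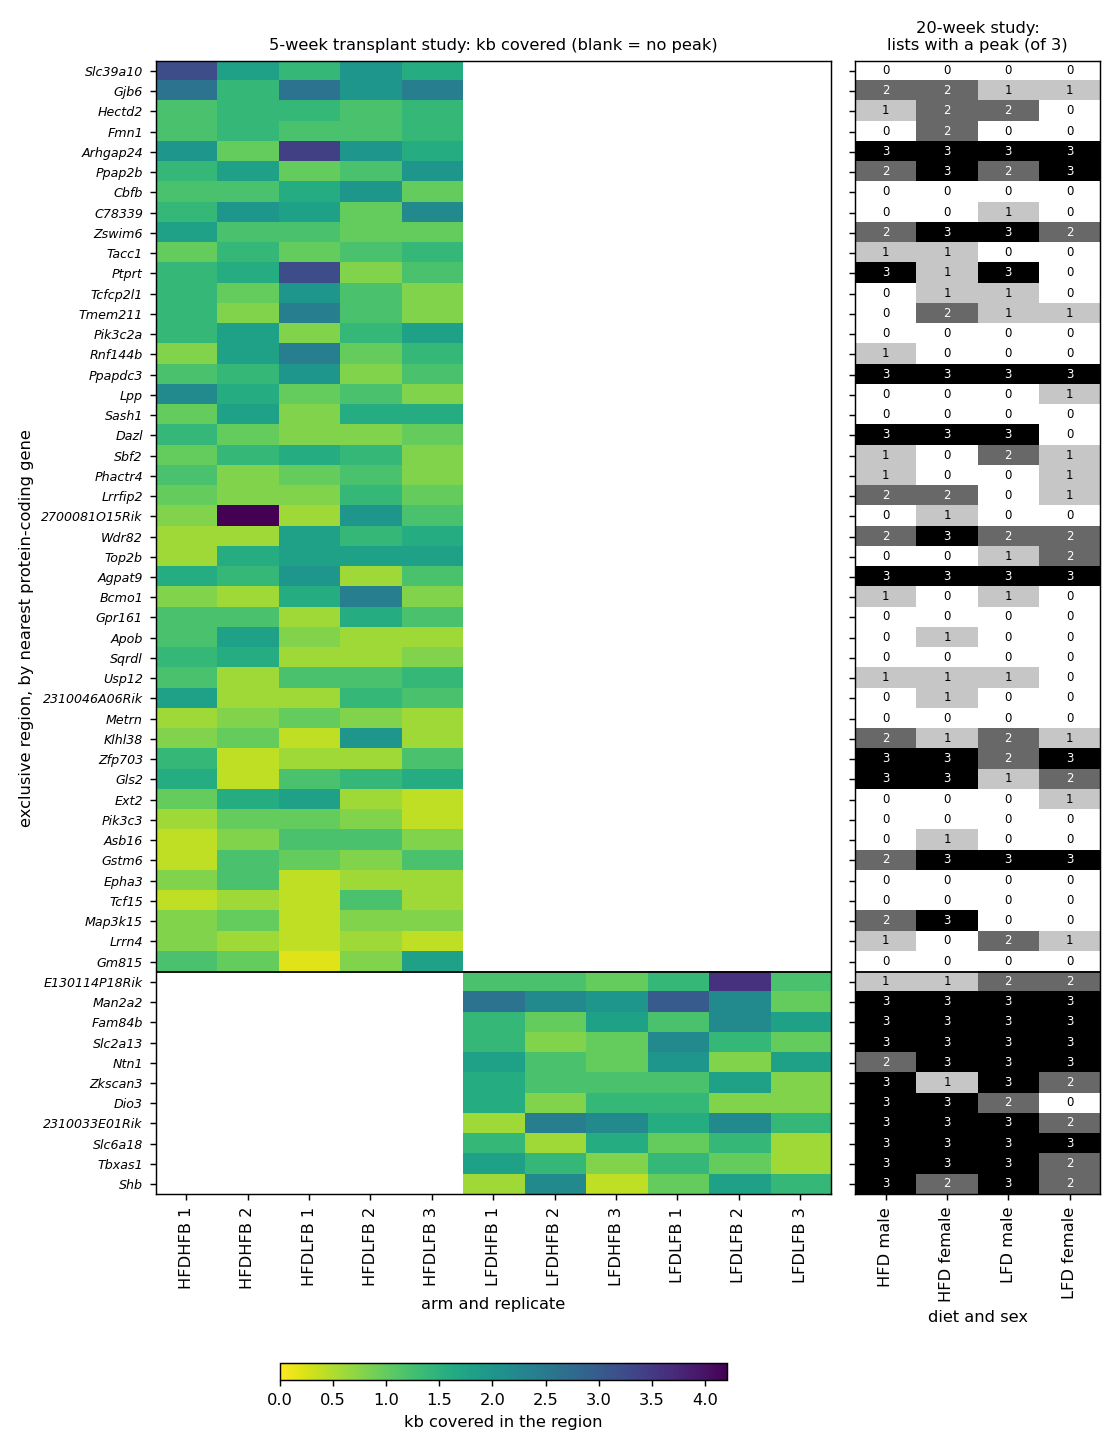
Left, length covered by peaks (kb, colour) in each of the 11 lists at the 45 HFD-exclusive regions (upper rows) and 11 LFD-exclusive regions (lower rows), each named by its nearest gene, with blank cells for lists without a peak. Right, the number of 20-week H3K27ac lists, of 3 per diet and sex, that mark the same region. In all, 11 of the upper rows (24.4%) hold 0 in all 4 columns and none of the lower rows does, against 12.2% of other regions in 5 or 6 lists.

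HFD-exclusive regions overlapped 9 promoters, those of Fmn1, Tmem211, Rnf144b, Ppapdc3, Bcmo1, Metrn, Gls2, Gstm6 and Map3k15. They are named as the whole of a small group and, apart from Fmn1, were chosen after their values were seen. Bcmo1 cleaves β-carotene to retinal and was covered over 800 and 600 bp in HFDHFB and 1600, 2400 and 800 bp in HFDLFB. Gls2, a glutaminase, was covered over 1600 and 400 bp in HFDHFB and 1200, 1400 and 1600 bp in HFDLFB. Gstm6, a glutathione transferase, ran from 400 to 1200 bp and Map3k15, a kinase of the MAP kinase cascade, from 400 to 1000 bp. Each of these promoters thus rested on a short peak in at least 1 list.

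The exclusive regions were set beside all regions and beside regions of like recurrence by place and by other marks. HFD-exclusive centres lay within 5 kb of a TSS in 12 of 45 (26.7%, 95% Clopper-Pearson interval 14.6 to 41.9%), against 25.9% of all merged regions and 16.4% of the 4424 other regions marked in 5 or 6 lists. For LFD-exclusive regions the share was 1 of 11 (9.09%, interval 0.230 to 41.3%). H3K4me1 peaks of the 20-week study of the same series, in which conventional C57BL/6 mice of both sexes ate either diet, covered most of both sets. At least 1 of 12 such lists marked 43 of 45 HFD-exclusive regions (95.6%, interval 84.9 to 99.5%) and 11 of 11 LFD-exclusive ones (interval 71.5 to 100%), against 98.4% of other regions in 5 or 6 lists. All 12 marked 37 of 45 (82.2%, interval 67.9 to 92.0%) and 6 of 11 (54.5%, interval 23.4 to 83.3%), against 77.7%. The HFD-exclusive regions without H3K4me1 in any of the 12 lists were the Map3k15 promoter and the region nearest Pik3c3, a lipid kinase of autophagy, both named after their values were seen.

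HNF4α peaks, from 4 lists of the 20-week study, overlapped 18 of 45 HFD-exclusive regions in at least 1 list (40%, interval 25.7 to 55.7%) and 6 of 11 LFD-exclusive regions (54.5%, interval 23.4 to 83.3%). Other regions in 5 or 6 lists stood at 33.0%. None of the exclusive regions of either diet was bound in all 4 lists, which leaves up to 7.87% on HFD and 28.5% on LFD, against 6.06% of other regions in 5 or 6 lists, 10.9% of all merged regions and 28.7% of regions marked in all 11. In the central 600 bp, read on both strands, the HNF4α core CAAAGTCCA was found in 1 of 45 HFD-exclusive and 0 of 11 LFD-exclusive regions, against 1.51% of all merged regions. The region with that core, in Cbfb, had an HNF4α peak in 0 of the 4 lists. The AP-1 core TGANTCA was found in 6 of 45 (13.3%, interval 5.05 to 26.8%) and 3 of 11 (27.3%, interval 6.02 to 61.0%), against 19.1% of all. A KLF core, GGGTGTGG, stood at 4.44%, 9.09% and 6.47%, and the CDX2 core TTTATNG at 35.6%, 18.2% and 30.6%. The interval of each of these motif shares contains the share over all regions.

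The 20-week H3K27ac lists, which took no part in the choice of regions, were asked which of the exclusive regions they marked. HFD-exclusive regions had a peak in 35.9 ± 3.83% (SD, n = 6 lists) on HFD and 28.9 ± 5.62% (n = 6) on LFD (difference 7.04 points, p = 0.065, exact permutation test, two-sided, 400 arrangements within sex). Other regions marked in 5 or 6 of the 11 lists gave almost the same difference, 47.8% against 40.6% (p = 0.055, exact permutation test). LFD-exclusive regions had a peak in 87.9% on HFD and 84.8% on LFD, each with lists from 72.7 to 100% (p = 0.815, exact permutation test), so the diet that lacked them at 5 weeks carried most of them at 20 weeks. The difference between the sets in the effect of diet was 4.01 points (p = 0.48, exact permutation test). The 294 regions marked in at least 4 of 5 HFD lists and no LFD list, which include the 45, stood at 35.7% against 28.0% (unadjusted p = 0.025, exact permutation test), a difference of 7.71 points that was of the size seen in the comparison regions, 7.16 points.

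**Figure D4:**
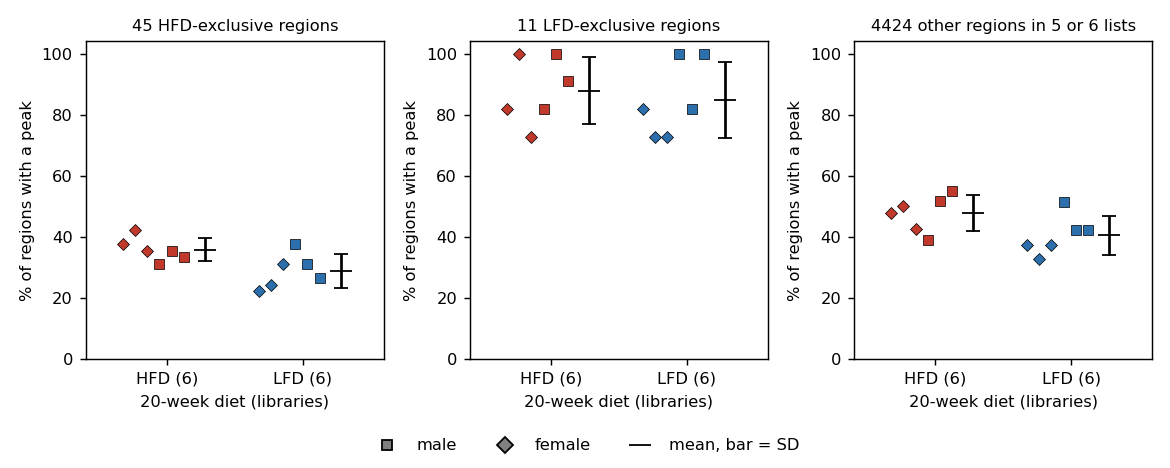
Percent of HFD-exclusive, LFD-exclusive and comparison regions (other regions marked in 5 or 6 of the 11 lists) with a peak in each 20-week H3K27ac list, by diet and sex, with the mean and SD of each diet. HFD-exclusive regions average 35.9% on HFD and 28.9% on LFD, and LFD-exclusive regions 87.9% and 84.8%.

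Single regions differed widely in the 20-week lists. Of the 45 HFD-exclusive regions, 3 (nearest Arhgap24, Ppapdc3 and Agpat9) were marked in all 12 lists and 11 (24.4%) in none. Of other regions in 5 or 6 lists 12.2% were in none, and of all merged regions 33.1%. More HFD than LFD lists marked 17, fewer marked 7, and 10 were marked in equal numbers of both. Such counts were not made for the comparison regions, whose share also leaned toward HFD, by 7.16 points. The Slc39a10 and Cbfb regions were in no 20-week list, the Fmn1 promoter in 2 of 6 HFD and 0 of 6 LFD lists, and the C78339 region in 0 and 1. Among regions picked out after their values were seen, the Map3k15 promoter was marked in 5 of 6 HFD and 0 of 6 LFD lists, and Gls2 in 6 and 3. All 11 LFD-exclusive regions were marked at 20 weeks in at least 1 list (interval 71.5 to 100%), against 87.8% of other regions in 5 or 6 lists. The LFD-exclusive regions nearest Man2a2, Fam84b, Slc2a13 and Slc6a18 were marked in all 12, and the one nearest Dio3 in 6 HFD and 2 LFD lists.

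Covered length was then fitted for each region with limma on log2(bp + 200), with diet and donor as terms. Over all 47861 regions the median difference was 0.20 toward HFD on this log2 scale, and 0.19 over gene loci. The fit tested each difference against 0, not against that shift. At an adjusted p under 0.05, 2 regions were wider on HFD (0.00418% of those tested) and 1 narrower (0.00209%). Past an unadjusted p of 0.05 in either direction were 5733 (12%). The first lay over Slc40a1, which encodes ferroportin, the iron exporter of the cell, at chr1:45958601-45972600. It was covered over 12000 and 10400 bp in HFDHFB and 10600, 10800 and 13000 bp in HFDLFB, and over 6400 to 7800 bp (median 6700) in the LFD lists, a log2 difference of 0.71 ± 0.08 (SE, limma adjusted p = 0.034). The diets did not overlap.

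The second, chr9:56970001-56981000 at the promoter of Man2c1, a cytosolic α-mannosidase, was covered over 5800 and 7200 bp in HFDHFB and 7200, 7000 and 7600 bp in HFDLFB. The LFD lists covered 3600 to 4600 bp of it (median 3900), and the log2 difference was 0.77 ± 0.10 (SE, limma adjusted p = 0.046). The region that narrowed, chr2:152530601-152537800, lay 21.3 kb from the TSS of Mcts2. It was covered over 3000 and 3600 bp in HFDHFB and 2200, 2000 and 2600 bp in HFDLFB, against 4000 to 7200 bp (median 5300) on LFD, a log2 difference of -0.89 ± 0.12 (SE, limma adjusted p = 0.046). All 3 regions were marked in all 12 of the 20-week lists. With each library centred, an alternative added after the data had been seen, Slc40a1 stood at 0.58 (limma adjusted p = 0.079) and Man2c1 at 0.64 (limma adjusted p = 0.065), past the threshold no longer, and Mcts2 at -1.03 (limma adjusted p = 0.031), still past it. Over the 11 fits without 1 library, the Slc40a1 and Man2c1 calls held in 1 each and the Mcts2 call in 0. No region had an effect of diet that differed between donor bacteria at an adjusted p under 0.05 (0 of 47861 with limma, 0%; 2057, or 4.3%, at an unadjusted p under 0.05).

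Summed over gene loci, the body of a protein-coding gene with 10 kb on each side, 15708 loci were tested with limma and 23 were covered more on HFD (0.146%) and 3 less (0.0191%). The same fit put 82.3% of all loci above 0 and 2990 (19%) past an unadjusted p of 0.05. With each library centred on its median over loci covered in all 11 lists, an alternative added after the data had been seen, the split became 9 higher and 19 lower. Of the 26 called loci, 12 (9 higher and 3 lower) were still past the threshold there. The count was also set by single libraries: without HFDHFB replicate 2, HFDLFB replicate 1 or LFDLFB replicate 3 no locus was covered more, without LFDLFB replicate 1 there were 286 and without HFDHFB replicate 1 there were 118. It was 3 and 2 without HFDLFB replicates 2 and 3, and 14, 10 and 12 without LFDHFB replicates 1, 2 and 3. The diets did not overlap at 349 loci in the direction of HFD (2.22%) and at 18 in that of LFD (0.115%), and 25 of the 26 called loci were of this kind. The exception was 1700007G11Rik, which reached 27000 bp in a list of either diet.

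Slc40a1 (chr1:45964915-45982439) was also called as a locus. With its flanks the locus holds the called region described above, so the calls count the same peaks and are not independent. Its coverage was 20000 and 20800 bp in HFDHFB and 17800, 18200 and 21600 bp in HFDLFB, against 11400 to 14200 bp (median 11900) in the LFD lists. The mean of 19680 ± 1641 bp (SD, n = 5) exceeded 12200 ± 1066 bp (SD, n = 6) by 0.68 ± 0.09 on the log2 scale (SE, limma adjusted p = 0.021). Over the 11 fits without 1 library, the call held in 7 for Slc40a1, Gm10955 and Ppapdc3, in 6 for Camk4, Wwox, Atg16l2, Psrc1, 1700011A15Rik and Krt81, in 5 for Cdr2 and Celsr2, in 3 for Numb and Slc6a18, and in 2 to 4 for the other called loci. Camk4, a calcium and calmodulin dependent kinase (chr18:33098695-33355421), was covered over 8000 and 11021 bp in HFDHFB, 8400, 7600 and 7000 bp in HFDLFB and 1600 to 4400 bp (median 2700) on LFD, with a log2 difference of 1.59 ± 0.23 (limma adjusted p = 0.022). Its flank shares peaks with the neighbouring Stard4 locus, so these are not independent: the shared region chr18:33356801-33363800 held 5000 to 7000 bp of coverage on HFD and 1400 to 4400 bp on LFD. Wwox, an oxidoreductase gene at a common fragile site, ran from 4200 to 9000 bp on HFD and from 1600 to 2400 bp on LFD (log2 difference 1.49 ± 0.22, limma adjusted p = 0.022).

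Atg16l2, a relative of the autophagy gene Atg16l1 (chr7:108437906-108450765), was covered over 12400 and 13000 bp in HFDHFB, 14400, 14200 and 13600 bp in HFDLFB and 7400 to 9400 bp (median 8700) on LFD (log2 difference 0.65 ± 0.10, limma adjusted p = 0.022). Numb, an inhibitor of Notch signalling that is divided unequally between daughter cells, was covered over 22200 to 28800 bp on HFD and 14400 to 20400 bp on LFD (0.54 ± 0.08, limma adjusted p = 0.029). Cdr2, known as a target antigen of paraneoplastic disease, was covered over 4200 to 5800 bp on HFD and 1600 to 2800 bp on LFD (1.25 ± 0.19, limma adjusted p = 0.025). The adjacent loci of Celsr2, a cadherin of planar cell polarity, and Psrc1, a spindle protein, share peaks and are not independent. Celsr2 was covered over 2600 to 4000 bp on HFD and 600 to 1600 bp on LFD (1.62 ± 0.25, limma adjusted p = 0.029), and Psrc1 over 600 to 3400 bp on HFD and 0 bp in every LFD list.

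Of the loci called, 2 more had 0 bp in every LFD list, and no fold is given for them. The predicted gene Gm10955 was covered over 4000 and 1000 bp in HFDHFB and 3400, 2400 and 800 bp in HFDLFB (limma adjusted p = 0.021). Ppapdc3, whose promoter is among the HFD-exclusive regions above, was covered over 1200 and 1400 bp in HFDHFB and 2000, 800 and 1200 bp in HFDLFB (limma adjusted p = 0.021), and Psrc1 had the same adjusted p. Ppapdc3 repeats the presence that defined its region. The 13 higher loci not described so far were Slc7a8, Vcp, Mtf2, C78339, 1700007G11Rik, Kpna4, Angptl1, Nup153, Ubp1, Pbld2, Cdk13, Raph1 and Xpr1, with log2 differences from 0.46 at Pbld2 to 2.94 at Angptl1. Angptl1 was covered over 0 to 1000 bp on LFD (median 0), so its difference depends on the 200 bp added before the log. C78339 and Nup153 are neighbours that share peaks. Both loci hold the HFD-exclusive region over an exon of C78339 described above, so both count in part the presence that defined that region.

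The 3 loci with less coverage on HFD stand for 2 sets of peaks. 1700011A15Rik and Krt81, a hair keratin, are neighbours on chr15 and hold the same peaks. Their coverage was 0 bp in 4 HFD lists and 1000 bp in HFDLFB replicate 3, and 1600 to 3800 bp (median 2300) on LFD (limma adjusted p = 0.022). Slc6a18, a neutral amino acid transporter best known from the kidney, was covered over 0 bp in every HFD list and 1400, 600 and 1600 bp in LFDHFB and 1000, 1400 and 600 bp in LFDLFB (limma adjusted p = 0.027). Its coverage is the LFD-exclusive region whose sequence is given above, so the presence that defined the region is counted again. RNA of Slc6a18 was at 0 CPM (counts scaled to the size of the library) in all 12 libraries, and Krt81 averaged 0 CPM on HFD and 0.00727 CPM on LFD, below the filter for testing.

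**Figure D5:**
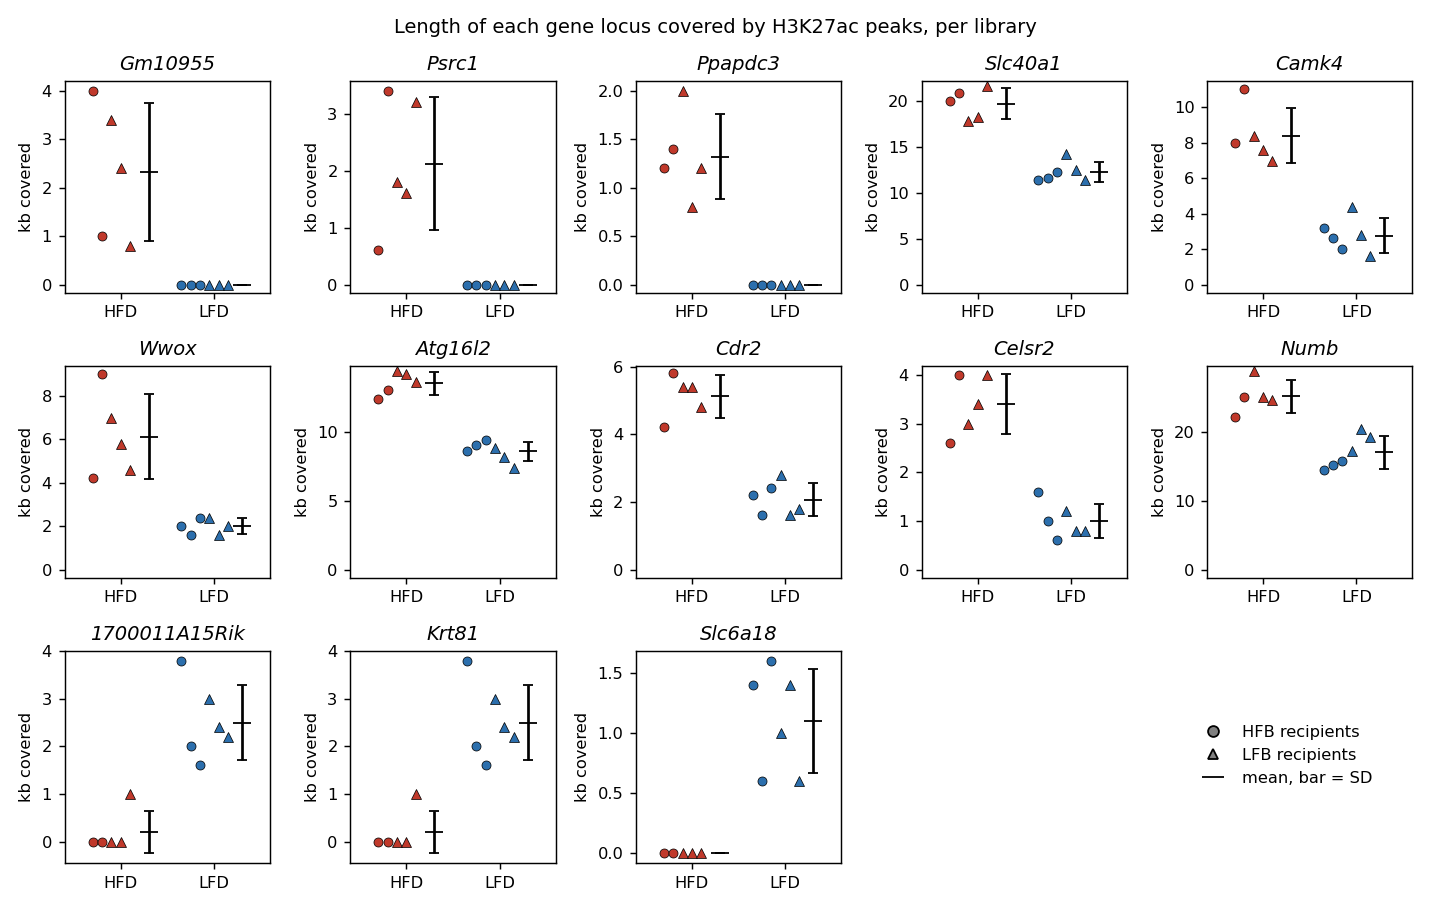
Length covered by peaks, in kb, within the body of named gene loci and 10 kb on each side, 1 point per library, with the mean and SD of each diet, each panel with its own axis. In every panel the 5 HFD libraries lie wholly above or wholly below the 6 LFD libraries; Slc40a1 runs from 17800 to 21600 bp on HFD and 11400 to 14200 bp on LFD.

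None of the 11 pathway lists had a locus past the adjusted threshold in limma. The genes given in this and the next paragraph are among those with the smallest p in their list, none of which passed. Of the 20 genes of fatty acid oxidation and ketogenesis, 19 lay above 0, with a median log2 difference of 0.24 against 0.19 for all loci, and 8 (40%) had an unadjusted p under 0.05 upward against 18.3% of all loci. That share was 33.3% in the antimicrobial, 31.2% in the identity and the transport, 30.8% in the xenobiotic, 20% in the clock, 14.3% in the stem cell, 11.1% in the PPAR, 10% in the goblet, 5.26% in the cholesterol and 0% in the AP-1 list, and 40% (2 of 5) in the neuronal and glial markers. Ppargc1a, the coactivator of mitochondrial genes, was covered over 33600 to 42000 bp on HFD and 26800 to 37600 bp on LFD (0.38 ± 0.10, limma adjusted p = 0.092). Acadvl, which begins the oxidation of very long chain fatty acids, had means of 3716 and 2630 bp (limma adjusted p = 0.157). Of 18 PPAR targets and fat handling genes tested, 16 lay above 0 (median 0.31). Dgat1, which completes triglyceride synthesis, was covered over 3400 to 4600 bp on HFD and 1200 to 3400 bp on LFD (0.84 ± 0.21, limma adjusted p = 0.092), and Ppard, a nuclear receptor for fatty acids, over means of 50400 and 40667 bp (limma adjusted p = 0.132).

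Cholesterol and fatty acid synthesis genes had 10 of 19 loci above 0 and a median of 0.01, against the 0.19 of all loci. Stard4, a cytosolic sterol carrier that shares peaks with the Camk4 locus above, was its one locus with an unadjusted p under 0.05, at 11800 to 15200 bp on HFD and 7800 to 11800 bp on LFD (0.58 ± 0.12, limma adjusted p = 0.059). AP-1 and immediate early genes had 8 of 16 above 0, a median of 0.02 and none with an unadjusted p under 0.05, with Fosb at means of 8754 bp on HFD and 10161 bp on LFD. Of the clock genes 13 of 15 lay above 0 (median 0.13), and Nfil3, a repressor in the clock's output arm, was covered over 6000 to 7600 bp on HFD and 3000 to 4800 bp on LFD without overlap (0.66 ± 0.15, limma adjusted p = 0.066). Because the whole set of loci leaned toward HFD, counts above 0 say little about a list by themselves.

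Lists of epithelial function held no called locus either. Intestinal identity factors had 15 of 16 above 0 (median 0.13), with Hnf4g, a relative of HNF4α, at means of 39880 bp on HFD and 31133 bp on LFD (limma adjusted p = 0.111) and Cdx2 at 22157 and 23083 bp. Of the absorptive transport genes 12 of 16 lay above 0 (median 0.12), with Cftr, the chloride channel, at means of 55560 and 41633 bp (limma adjusted p = 0.103) and Slc26a3, the chloride and bicarbonate exchanger, at 44773 and 48844 bp (limma adjusted p = 0.431). Goblet genes had 7 of 10 above 0 (median 0.19), stem cell and Wnt targets 12 of 14 (0.28), and xenobiotic and bile acid genes 12 of 13 (0.30). Of the antimicrobial and microbiota genes 11 of 12 lay above 0 (median 0.22). Ccl20, the chemokine of the epithelium over lymphoid follicles, was covered over 2800 and 3600 bp in HFDHFB, 2400, 3200 and 3000 bp in HFDLFB and 0 to 2200 bp (median 600) on LFD (2.38 ± 0.57, limma adjusted p = 0.079).

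Marker loci of other cell types were read in the same fit, and none passed. Of 3 leukocyte loci tested 2 lay above 0, of 3 fibroblast loci 3, of 8 smooth muscle loci 7, of 5 endothelial loci 5, of 4 adipocyte and mesothelial loci 3, and of 5 neuronal and glial loci 4, with medians from 0.06 to 0.25. The nearest to the threshold was Lrrn4, a mesothelial gene whose locus holds an HFD-exclusive region, at 400 to 1760 bp on HFD and 0 bp in every LFD list (limma adjusted p = 0.0502). Its promoter had no peak in any list. The 10 epithelial loci had a median of 0.03, with 7 above 0.

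RNA was measured in 12 libraries of the same 4 groups, 3 in each, with 39904191 to 48026846 reads counted in genes. It came from scraped colon cells, a different preparation from the shed epithelium of the ChIP, and in bulk RNA fewer cells of a type and less RNA per cell cannot be told apart. No gene differed between diets at an adjusted p under 0.05 in edgeR (0 of 15893, 0%), where 342 (2.15%) had an unadjusted p under 0.05. DESeq2 called 4 of 19411 (0.0206%). Of the 33 genes with the nearest TSS within 50 kb of an HFD-exclusive region, 29 were in the table and 26 were tested, and none had an unadjusted p under 0.05. Their median log2 difference was -0.02, with 11 of 26 above 0, against 0.00 and 50.2% of all genes. Of the 6 genes near LFD-exclusive regions 4 were tested, 2 of them above 0.

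Values of the named genes are given with their tests. RNA of Hectd2 averaged 1.23 CPM on HFD and 1.67 CPM on LFD, the smallest p among genes near exclusive regions (edgeR adjusted p = 1). Lpp, a focal adhesion protein, averaged 104.8 and 94.2 CPM (edgeR adjusted p = 1). Fmn1, with an HFD-exclusive promoter, averaged 54.2 ± 11.7 CPM (SD, n = 6) on HFD and 57.7 ± 11.4 CPM (n = 6) on LFD, and Cbfb 32.0 ± 5.36 and 32.0 ± 4.83 CPM. Slc40a1, called in H3K27ac as a region and as the locus that holds it, ran from 500 to 1065 CPM on HFD and from 398 to 947 CPM on LFD. Its means were 779 ± 213 and 730 ± 215 CPM, a log2 difference of 0.07 (edgeR adjusted p = 1). Of the 23 loci covered more on HFD, 20 could be tested in the RNA, with 10 above 0, a median of -0.01 and none at an unadjusted p under 0.05.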

How the data were processed

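H3K27ac was profiled in 11 libraries of colon epithelium and RNA in 12. The authors aligned ChIP reads to mm9 with Bowtie 0.12.8, removed duplicates with Picard 1.110 and called peaks with SICER in windows of 200 bp, each library on its own. The deposited lists give peak starts and ends, with no score or read count, so the authors' differential test on reads could not be repeated and depth is unknown. RNA was given by the authors as deposited read counts per gene (STAR 2.5, featureCounts 1.5.0-p1).

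Peaks sharing 1 bp were merged. Covered bp per region (a peak in at least 2 lists) and per protein-coding locus (GENCODE, gene body and 10 kb each side) were tested as log2(bp + 200) with limma 3.58.1, diet and donor as terms, with Benjamini-Hochberg adjustment. Counts were tested with edgeR 4.0.16 (quasi-likelihood, TMM, low genes filtered) and, as an alternative, DESeq2 1.42.0. Single values were tested by exact permutation of diet within donor. The scripts were tested on simulated data. Intervals are Clopper-Pearson at 95% and cover counting error only.

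Named are the 8 exclusive regions per diet with the longest coverage in their shortest list, up to 10 called loci per direction whose diets do not overlap, genes near exclusive regions called in the RNA, and called pathway genes. Where none passed, up to 3 per direction with the smallest p were named; some items are not reported here. Regions, gene lists and tests were chosen with earlier results of these data known. H3K27ac replicates of equal number and donor did not deviate together (correlations between -0.01 and 0.01). RNA replicates of equal number and donor had correlations from -0.33 to 0.45, so not all of them deviated together. Over all RNA pairs of equal number, whatever the donor, the range was -0.59 to 0.45. No other columns of per-sample values were left out (0).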

Additional observations from a re-analysis of the deposited data

Results flagged for a closer look

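Of 50 groups of libraries examined, 7 had a highest or lowest library that stood apart from the rest of its group by a gap large against the group's range. Chance gives about 1 in 20 for independent values on a continuous scale. Median widths move in steps, some loci lay at 0 bp and some share peaks, so that rate is no measure for these groups. The median peak width was 2000 bp in HFDHFB replicate 1, against 1800 bp in the other HFD lists, and likewise 2000 bp in LFDLFB replicate 1, against 1800 bp in the other LFD lists. In a file whose widths move in steps of 200 bp, each gap is 1 step. The mean peak width of LFDLFB replicate 1 was 2.63 kb, against 2.35 to 2.42 kb in the other LFD lists. HFDHFB replicate 2, the longest list, had a mean Jaccard index with the other lists of 0.5815, against 0.588 to 0.590 for the other HFD lists.

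At single loci, Slc40a1 was covered over 14200 bp in LFDLFB replicate 1, against 11400 to 12400 bp in the other LFD lists, which is still below every HFD list. 1700011A15Rik and Krt81, which hold the same peaks, were covered over 1000 bp in HFDLFB replicate 3 and 0 bp in the other HFD lists.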

How the results depend on the processing

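Leaving out 1 library moved the difference in peak number between 2337 and 7031, in covered length between 9.04 and 21.8 Mb, in median width between -33.3 and 66.7 bp (0 without LFDLFB replicate 2 or 3), and in Jaccard index between 0.00760 and 0.0199. HFD-exclusive regions rose to between 62 and 138, since fewer lists had to agree, and LFD-exclusive regions ranged from 11 to 16. The 20-week difference ran from 1.20 to 6.87 points and was 0 in the H3K4me1 lists. Regions called higher ran from 0 to 7 and lower from 0 to 0, and loci higher from 0 to 286 and lower from 0 to 7. Within HFB and LFB recipients peak number differed by 4656 and 4712 and covered length by 17.7 and 13.1 Mb, with exact p-values that cannot pass, and median width by -66.7 bp within LFB. Bins of 1000 bp gave 200 HFD-exclusive and 29 LFD-exclusive bins, and allowing 1 list to miss gave 294 and 27.

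Replicate numbers are only names here. With the replicate number as a block, over 5 pairs, peak number differed by 4648 (p = 0.1875, exact permutation test), covered length by 15.0 Mb (p = 0.0625) and median width by 0 bp; over 5 pairs no exact p can pass. In limma the block left 0 regions and 0 loci in either direction, and in edgeR 0 genes. The block's 20-week value, over 6 pairs, was 4.01 points (p = 0.4375, exact permutation test).

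Regions higher and lower on HFD were 5 and 2 with a pseudocount of 1000 bp, 66 and 12 without the variance trend and 1 and 0 without the filter. The exact test of presence, whose smallest p could not pass adjustment here, gave 0 and 0. With libraries centred 0 were higher. Lower regions were 0 with equal numbers of widest peaks and 0 without the donor term. Loci higher and lower were 56 and 6 with that pseudocount, 80 and 7 without the donor term and 9 and 19 centred. Higher loci were 4 with widest peaks, which also took HFD-exclusive regions to 13 and promoter peaks to -98.75, 12 with 2 kb flanks and 15 without the trend, and lower loci 5 without the filter. The cause of these moves was not tested. None of the 26 called loci changed sign in any alternative run, and genes nearest exclusive regions called in the RNA stayed at 0 in each. The unknown depth of the ChIP libraries limits every statement on peak number, width and absence.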
